A study of Mus musculus with 40 samples.

Results

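Gene expression was compared between EMT-6 tumors treated with a TGF-β trap alone and tumors treated with an inactive isotype control, in the libraries that resemble each other in their content of structural RNA. The EMT-6 line derives from a mammary carcinoma of the mouse. The rule took 6 trap control libraries (C0459 to C0464) and 10 isotype control libraries (C0449 to C0458), 16 of the 40 bulk RNA-seq libraries of the study, because in each of them Rn7s1, Rn7s2, mt-Rnr1 and mt-Rnr2 took over 25% of counts. Rn7s1 and Rn7s2 are 7SL RNAs, and the mt-Rnr genes encode mitochondrial ribosomal RNA. The other 4 trap control libraries, at 12.9% to 17.4% of such RNA, and the 20 libraries of mice given anti-PD-L1 or a bifunctional fusion of anti-PD-L1 and the trap, at 11.7% to 18.004%, hold less of this RNA and entered only the fit of all 40 libraries.

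All mice were Balb/C females aged 8 to 12 weeks that had received EMT-6 cells in the mammary pad. Dosing was intravenous on days 0, 1 and 2, beginning 20 days after inoculation, when tumors averaged about 400 mm3, and tumors were collected on day 6. The trap control group received 492 µg of a protein labelled anti-PD-L1 (mut)/TGF-β trap control, a trap fused to a mutated PD-L1 antibody. The isotype control group received 400 µg of an inactive anti-PD-L1 isotype control, so the agents differ in dose and in format as well as in the trap. Tumors were snap-frozen whole, and a tumor library holds RNA of carcinoma cells, stroma, vessels and leukocytes. Each sample is labelled as a tumor of its own, but the labels give no mouse, litter or extraction number.

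TGF-β ligands are secreted in a latent form that is stored in the matrix and released by integrins and proteases. The active ligand joins the receptors TGFBR1 and TGFBR2, which phosphorylate SMAD proteins that enter the nucleus and switch genes on or off. Known targets include collagens and the inhibitor Smad7, and in tumors the cytokine is known for activating fibroblasts, stimulating matrix production and restraining cytotoxic lymphocytes. A trap is a soluble form of a receptor's ligand-binding part that captures the ligand before it reaches the cell.

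Total expected counts ran from 13495835 to 25108601 in the trap control libraries and from 19341474 to 24040660 in the isotype control libraries (two-sided exact permutation test of the means, p = 0.0465). Structural RNA took 29.7% to 62.3% of counts with the trap control and 34.2% to 62.0% with the isotype control. The libraries were chosen by this share, so its likeness between the groups is no separate result. With the trap control 18075 to 19421 genes were detected, against 18943 to 21331 with the isotype control (exact permutation test, p = 0.0149). Markers of tissue around the tumor stood apart in single libraries. Skeletal muscle markers summed to 11702 CPM (counts scaled to a common library size) in the trap control library C0463 and to 283 CPM in the isotype control library C0449, against at most 19.0 CPM in the other 14. Erythroid markers summed to 640.5 CPM in the trap control library C0459 and to 424 CPM in C0449. Among keratin and milk genes that mark mammary epithelium, Krt7 had a median of 1.15 CPM with the trap control and 1.08 CPM with the isotype control, and Csn2 was at 0 in all 16 libraries. Of 3 tested mammary epithelium markers, Krt7 had a positive log2 fold change with the trap control (0.73) and 2 had negative ones. Their median was −0.14 with the GC trend described below removed, and none had unadjusted p under 0.05.

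Fold changes between the groups followed the GC content of the transcripts. For each library the slope of a gene's log2 CPM deviation over GC content was computed. It ran from 0.093 to 0.239 log2 units per 10 percentage points of GC in the 6 trap control libraries, mean 0.162 ± 0.057 (SD, n = 6). It ran from −0.292 to 0.120 in the 10 isotype control libraries, mean −0.097 ± 0.122 (SD, n = 10). All 6 trap control slopes were positive, 8 of 10 isotype control slopes were negative, and the ranges overlapped through C0456 (0.120). The difference of the means was 0.26 (two-sided exact permutation test over 8008 splits, p = 0.000749). That fold changes follow GC content was known from these data when the comparison was set. The p-value therefore describes these libraries and is no independent test.

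Without correction, the median log2 fold change went in steps from −0.37 in the 570 genes under 40% GC to 0.29 in the 525 genes over 60% GC, and across genes the fold change had a Spearman correlation of 0.60 with GC content. Genes are not independent replicates, and this value is a description of these libraries. An edgeR quasi-likelihood test without correction called 1041 of 14183 genes at adjusted p under 0.05 (7.34%), 589 lower with the trap control (4.15%) and the others higher (3.19%). The genes called higher had a median GC content of 56.7% and those called lower 41.7%, against 49.9% over all genes tested. Sample numbers run in treatment order, so a difference in how the 2 groups of libraries were made and an effect of treatment on GC-rich genes cannot be told apart. With a smooth trend over GC content removed from each library, the correlation was 0.02 and the medians of the same classes lay between −0.01 and 0.02. All values from here on have this trend removed unless stated.

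**Figure D1:**
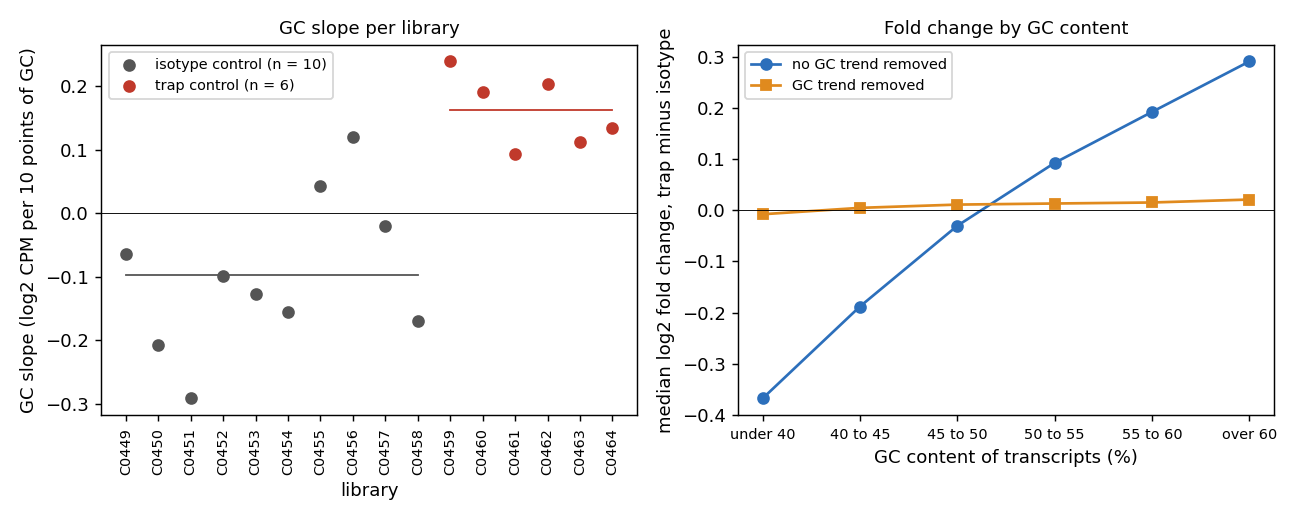
Left, slope of log2 CPM over transcript GC content in each library (log2 units per 10 percentage points; horizontal lines are group means, n = 10 and 6). Right, median log2 fold change, trap control minus isotype control, in 6 classes of GC content (%) with and without removal of the trend; the uncorrected medians climb from −0.37 to 0.29 and the corrected ones stay between −0.01 and 0.02.

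With the trend removed, 8 of 14183 genes passed adjusted p under 0.05 in edgeR (0.0564%). Stc1 was the 1 gene that rose (0.00705%), and 7 genes fell (0.0494%): Crabp1, Rps14, Rps23, Rhoq, Zfp97 and the pseudogenes Gm17711 and Rpl35a-ps2. All 8 also passed without the correction, in the same direction. At unadjusted p under 0.05 there were 1799 genes (12.7%), 925 higher (6.52%) and 874 lower (6.16%). In 5 of the 8 genes the libraries of the groups did not overlap, as in 29 genes tested (0.204%).

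Stc1 encodes stanniocalcin 1, a secreted glycoprotein known for effects on calcium and phosphate handling and induced by hypoxia in many cells. The gene (ENSMUSG00000014813) lies on chromosome 14 at 69029238 to 69041804, plus strand, in the mouse build mm10. Its level was lowest at 11.6, median 13.4 and highest at 22.4 CPM in the 6 trap control libraries. In the 10 isotype control libraries it was lowest at 3.99, median 6.995 and highest at 8.84 CPM. Every trap control library lay above every isotype control library, and C0464 was the highest. The means were 14.7 ± 3.94 (SD, n = 6) and 6.55 ± 1.605 CPM (SD, n = 10), a log2 fold change of 1.16 (SE 0.17, edgeR adjusted p = 0.026).

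Crabp1 encodes a cytosolic protein that binds retinoic acid. The gene (ENSMUSG00000032291) lies on chromosome 9 at 54764748 to 54773110, plus strand. It was a weakly expressed gene, lowest at 0.437, median 0.876 and highest at 1.80 CPM with the trap control. With the isotype control it was lowest at 1.84, median 2.65 and highest at 4.14 CPM. The groups did not overlap, although C0461 at 1.80 CPM came close to the lowest isotype control library. The log2 fold change was −1.51 (SE 0.25, edgeR adjusted p = 0.0402), the largest fall among the 8 genes.

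Rps23 and Rps14 encode proteins of the small ribosomal subunit, and Rpl35a-ps2 is a processed pseudogene of a protein of the large subunit. Rps23 (ENSMUSG00000049517, chromosome 13, 90922958 to 90924950, plus strand) ran from 74.2 CPM through a median of 84.3 to 104 CPM with the trap control. With the isotype control it ran from 110.1 through a median of 128 to 165 CPM. The groups did not overlap, and the log2 fold change was −0.56 (SE 0.10, edgeR adjusted p = 0.0402). Rps14 (ENSMUSG00000024608, chromosome 18) ran from 190.1 through 240.4 to 309 CPM with the trap control and from 286 through 405 to 546 CPM with the isotype control. One trap control library thus reached into the isotype control range, and the log2 fold change was −0.81 (SE 0.14, edgeR adjusted p = 0.0402). Rpl35a-ps2 (chromosome 1, 181241988 to 181242320, minus strand) ran from 13.6 to 23.7 CPM against 20.7 to 39.8 CPM, with a log2 fold change of −0.78 (SE 0.14, adjusted p = 0.0402). Ribosomal protein genes have many near-identical pseudogenes, and the counting model divides reads that map to several of them, so the level of any single one is uncertain.

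Rhoq encodes a small GTPase known for its part in membrane traffic and actin shape. It lies on chromosome 17 at 86963082 to 87000069, plus strand, and ran from 36.2 through a median of 43.5 to 49.2 CPM with the trap control. With the isotype control it ran from 46.7 through 57.4 to 64.0 CPM. The ranges overlapped only through C0456, the lowest isotype control library, and the log2 fold change was −0.43 (SE 0.08, edgeR adjusted p = 0.0402). Zfp97, a zinc finger gene on the same chromosome at 17121415 to 17146831, plus strand, ran from 12.5 through 14.7 to 15.6 CPM against 16.9 through 18.8 to 21.9 CPM. Its log2 fold change was −0.41 (SE 0.07, adjusted p = 0.0402) without overlap, and −0.82 where the GC trend of its transcripts, 37.6% GC, was not removed. Gm17711, a pseudogene on chromosome 10 at 18011268 to 18011505, plus strand, ran from 0.662 through 1.29 to 1.95 CPM against 2.07 through 3.28 to 4.57 CPM. Its log2 fold change was −1.28 (SE 0.22, adjusted p = 0.0402), and −1.96 without removal of the trend.

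The direction of all 8 genes was the same in each of the 16 fits that left out 1 library, but their calls were not. Stc1 passed in 11 of the 16 fits, Crabp1 in 5, Rhoq, Rps23, Rpl35a-ps2 and Gm17711 in 4 each, Rps14 in 3 and Zfp97 in 2. No gene passed without C0453, C0454, C0458, C0462 or C0464, 13 passed without C0455 and 12 without C0457. With C0449, C0450 or C0463 left out 1 gene passed, and with C0451 or C0452 left out 2 passed. It was 3 without C0460 or C0461, 4 without C0459 and 8 without C0456. Not all of these were among the 8 genes above: without C0452 it was 1 of 2, without C0459 3 of 4 and without C0456 6 of 8. The genes that passed without C0455 or without C0457 included all 8.

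**Figure D2:**
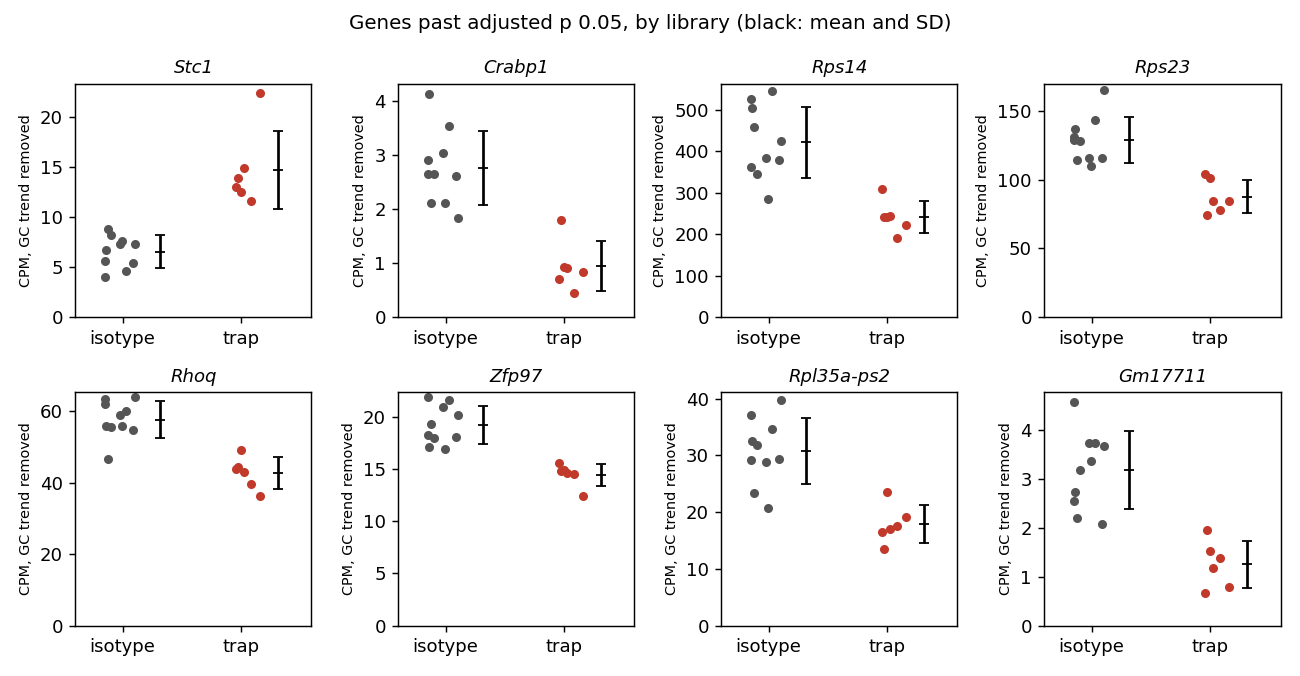
Level of the 8 genes past adjusted p 0.05 in each library (CPM, TMM-scaled, GC trend removed; each axis starts at 0). Gray points are the 10 isotype control and red points the 6 trap control libraries, with mean and SD in black; Stc1 is higher and the other 7 genes are lower with the trap control, and the points of Rps14, Rhoq and Rpl35a-ps2 overlap.

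The bases upstream of the called genes were read from RefSeq (build GRCm38.p6), since SMAD proteins are known to bind the letters CAGAC. Of the 8 genes 4 had an entry, Crabp1, Rps23, Rhoq and Zfp97, and the 250 bases before the start of Crabp1 (chr9:54764498-54764747) and Rps23 (chr13:90922872-90923121), both on the plus strand, are shown. Crabp1 had the largest fall, and Rps23 is the ribosomal protein gene that fell without overlap between the groups. The start is that of RefSeq, which for Rps23 lies inside the gene as placed above, so part of its window lies within that gene.
Crabp1: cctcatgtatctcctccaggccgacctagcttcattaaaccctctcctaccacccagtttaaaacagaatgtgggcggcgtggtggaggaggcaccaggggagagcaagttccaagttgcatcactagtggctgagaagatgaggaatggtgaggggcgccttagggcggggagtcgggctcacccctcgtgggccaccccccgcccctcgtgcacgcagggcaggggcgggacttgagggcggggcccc
Rps23: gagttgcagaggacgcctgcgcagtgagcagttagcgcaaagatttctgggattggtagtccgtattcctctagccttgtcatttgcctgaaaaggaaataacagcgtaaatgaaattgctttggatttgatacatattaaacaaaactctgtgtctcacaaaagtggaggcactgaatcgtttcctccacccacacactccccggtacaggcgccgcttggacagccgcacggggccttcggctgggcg
Capitals would mark CAGAC or GTCTG, its reverse complement on the other strand, and neither window holds any, nor do those of Rhoq and Zfp97. Over all 32851 such windows 42.2% hold at least 1 of these words. The Crabp1 window is 63.6% G or C and the Rps23 window 50.8%, against a median of 52.4% over all windows.

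The ligands and receptors of the pathway were tested first among the lists. None of the 8 passed the adjusted test, and their median log2 fold change was −0.05 against 0.01 over all genes tested. Tgfb1, the main ligand in most tissues, ran from 19.0 through a median of 28.0 to 28.7 CPM with the trap control and from 23.04 through 27.6 to 33.9 CPM with the isotype control (log2 fold change −0.09, SE 0.10, edgeR adjusted p = 0.759). Tgfb2 ran from 6.98 through 16.1 to 27.0 CPM against 10.4 through 19.2 to 25.1 CPM (−0.16, SE 0.23, adjusted p = 0.825). Both ligands overlapped over most of their range. Tgfb3 ran from 26.9 through 35.9 to 47.1 CPM against 16.1 through 28.3 to 35.4 CPM, with 5 of 6 trap control libraries above the isotype control median (log2 fold change 0.41, SE 0.17, adjusted p = 0.318). Tgfbr1, the signaling receptor, ran from 17.7 through 22.9 to 36.9 CPM against 24.1 through 28.4 to 39.4 CPM (−0.29, SE 0.15, adjusted p = 0.428). Tgfbr2, which binds the ligand and whose outer part such traps use, ran from 115 through 168 to 194 CPM against 131 through 165 to 199 CPM (−0.04, SE 0.12, adjusted p = 0.93).

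Release and signaling genes gave the same count of 0 calls, among 13 tested genes of latent TGF-β storage and activation (median 0.04) and 11 SMADs and regulators (median 0.00). Itgav, the integrin subunit that pairs with several partners to release TGF-β, was lower in every trap control library than the isotype control median. It ran from 131 through 161 to 179 CPM against 168 through 196 to 223 CPM (log2 fold change −0.31, SE 0.08, adjusted p = 0.144). Smad7, which blocks the receptors and is itself a target, ran from 43.4 through 60.5 to 75.3 CPM against 43.1 through 68.8 to 93.7 CPM. Its log2 fold change was −0.22 (SE 0.15, adjusted p = 0.572), and −0.02 without removal of the GC trend. Among 18 genes of the activin and BMP branch, Bmp2, a ligand of that branch, ran from 0.940 through 1.31 to 5.25 CPM against 0.377 through 0.584 to 1.06 CPM (1.47, SE 0.35, adjusted p = 0.125). All 6 trap control libraries lay above the isotype control median, and C0464 held the highest value. Bmp2 passed without removal of the GC trend (adjusted p = 0.0209) and in the fit of 40 libraries described last (1.48, SE 0.33, adjusted p = 0.0329).

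Of 27 genes known to respond to TGF-β, none passed the adjusted test. At unadjusted p under 0.05, 2 were higher and 4 lower (22.2%, against 12.7% over all genes tested), and the median was −0.04, turning to 0.05 without removal of the GC trend. Spp1, the matrix protein osteopontin, ran from 486.6 through 689 to 798 CPM against 623 through 861 to 1314 CPM (−0.44, SE 0.15, adjusted p = 0.242). The groups overlapped, and all 6 trap control libraries lay below the isotype control median. Postn, the matrix protein periostin, was at −0.76 (SE 0.34, adjusted p = 0.353) and Timp1, an inhibitor of matrix proteases, at −0.34 (SE 0.14, adjusted p = 0.333). Of the 27 genes 11 had positive and 16 negative fold changes. The largest rise was that of the collagen gene Col1a2, at 0.40 (SE 0.15, edgeR adjusted p = 0.278).

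Matrix genes did not share a direction. Of 22 collagen genes 11 had a positive and 11 a negative fold change, none passed, and the median was −0.01. Col1a1 ran from 1198 through 1633 to 2397 CPM with the trap control and from 675 through 1489 to 2475 CPM with the isotype control (log2 fold change 0.22, SE 0.20, adjusted p = 0.691). Col1a2, the partner chain in type I collagen, ran from 2994 through 3542 to 4728 CPM against 1784 through 2804 to 3882 CPM (0.40, SE 0.15, adjusted p = 0.278). The groups overlapped for both chains, and all 6 trap control libraries were above the isotype control median for Col1a2. Col5a3, a chain of type V collagen, was at −0.42 (SE 0.16, adjusted p = 0.282). None of 26 matrix glycoproteins and proteoglycans (median −0.05), 15 genes of collagen processing (−0.06), 17 matrix proteases and inhibitors (−0.10) or 16 fibroblast markers (−0.13) passed. Cspg4, a pericyte proteoglycan, ran from 3.59 through 6.78 to 8.97 CPM against 9.16 through 10.6 to 15.7 CPM without overlap (log2 fold change −0.77, SE 0.18, adjusted p = 0.125). The list it belongs to, smooth muscle and pericytes, had a median of 0.29 over 13 tested genes, 8 positive and none past the adjusted test, with 2 higher and 1 lower at unadjusted p under 0.05. That median was −0.04 without C0463, the library with the highest muscle sum.

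**Figure D3:**
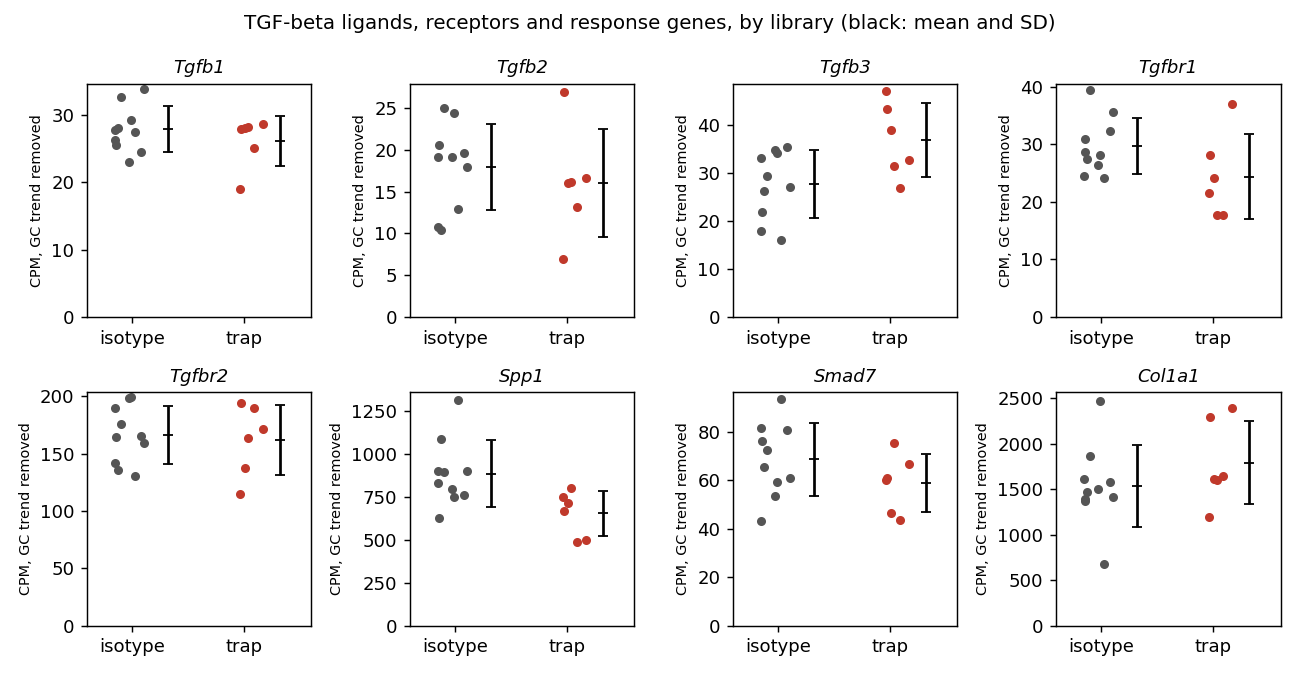
Level of 3 ligands, 2 receptors and 3 response genes of the TGF-β pathway in each library (CPM, TMM-scaled, GC trend removed; each axis starts at 0). Gray points are the 10 isotype control and red points the 6 trap control libraries, with mean and SD in black; the points of the groups overlap for all 8 genes.

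Endothelial markers had the highest share of members at unadjusted p under 0.05 among the lists with at least 10 members tested, 9 of 14 and all 9 higher with the trap control (64.3%, against 12.7% over all genes and 6.52% in that direction). None passed the adjusted test, and the median was 0.48. Cdh5, the cadherin of endothelial junctions, ran from 35.4 through 44.2 to 73.5 CPM against 19.1 through 34.0 to 55.2 CPM, with all 6 trap control libraries above the isotype control median (log2 fold change 0.53, SE 0.19, adjusted p = 0.257). Kdr, the main receptor for VEGF, ran from 17.9 through 23.6 to 37.2 CPM against 11.7 through 18.05 to 29.8 CPM (0.53, SE 0.18, adjusted p = 0.234). The summed level of the 14 markers ran from 169 to 400.1 CPM with the trap control, highest in C0464 and C0463, and from 116 to 298 CPM with the isotype control. C0463 is the library with the highest muscle sum. Without C0449 and C0463, the libraries with muscle markers over 100 CPM, 4 of 14 markers had unadjusted p under 0.05 and the median was 0.37. Over all genes in that fit the share at unadjusted p under 0.05 was 12.5%. In whole tumors, more cells of a type and more RNA per cell cannot be told apart.

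Cytotoxic effector genes were weakly expressed, and 9 of 14 reached the filter on low counts. All 9 had positive fold changes with a median of 0.55, none passed the adjusted test, and 4 had unadjusted p under 0.05, all higher (44.4%, against 12.7% over all genes and 6.52% in that direction). Without C0458 and C0459, the libraries of the highest structural RNA share in each group, 1 of 9 had unadjusted p under 0.05. Over all genes in that fit the share was 10.1%, so this count lay near it. Gzmb, which encodes granzyme B, ran from 0.702 through 1.38 to 1.74 CPM with the trap control and from 0.0866 through 0.607 to 1.01 CPM with the isotype control. All 6 trap control libraries exceeded the isotype control median, and the log2 fold change was 1.12 (SE 0.33, adjusted p = 0.181). Gzmf, a granzyme of the same gene cluster, was at 1.10 (SE 0.45, adjusted p = 0.316). T cell markers themselves were mostly too low to test. Of 19 markers 3 reached the filter, Cd3e had 0 to 10 raw counts per library and Cd8a 1 to 23, and the summed level ran from 7.67 to 23.1 CPM with the trap control against 11.2 to 28.5 CPM with the isotype control. Pdcd1, which encodes PD-1, had 0 to 14 counts per library and Ifng, which encodes interferon-γ, 0 to 2, and neither reached the filter of the fit of 16 libraries. In the fit of 40 libraries described last, Pdcd1 was tested and was at 0.41 with the trap alone (SE 0.47, edgeR adjusted p = 0.798). That fit also tested 18 T cell markers, with a median of 0.19 for the trap alone. The 3 markers tested in the 16 libraries had a median of −0.16. The filter of the larger fit drew on the other libraries too, and counts in the 16 libraries stayed low. Cd274, which encodes PD-L1, ran from 5.16 through 9.71 to 13.2 CPM against 4.64 through 6.71 to 10.3 CPM (log2 fold change 0.37, SE 0.23, adjusted p = 0.518).

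Of 24 genes of the type I interferon response 23 had positive fold changes, with a median of 0.31; none passed and 8 had unadjusted p under 0.05, all higher (33.3%, against 12.7% over all genes and 6.52% in that direction). That count was 14 without C0449 and C0463 (12.5% of all genes in that fit) and 5 without C0458 and C0459 (10.1% of all genes). Of 18 genes of the interferon-γ response none had unadjusted p under 0.05, and the median was 0.17. Mx1, an antiviral GTPase, ran from 2.84 through 5.03 to 8.49 CPM against 1.96 through 2.92 to 4.72 CPM (0.68, SE 0.23, adjusted p = 0.233). Mx2, its close relative, was at 0.66 (SE 0.22, adjusted p = 0.233). Cxcl10 and Cxcl11, chemokines that draw T cells and are induced by interferons, were at 0.63 (SE 0.28, adjusted p = 0.357) and 0.89 (SE 0.35, adjusted p = 0.296). Of 7 tested genes of MHC class II presentation none passed, and the median of 0.52 rested on 1 library. H2-Eb1, a class II chain, was at 37.9 CPM in C0464 against a trap control median of 4.36 CPM and an isotype control median of 5.65 CPM, and without C0464 the median of the 7 genes was −0.37. Of 17 macrophage markers none passed (median 0.16).

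**Figure D4:**
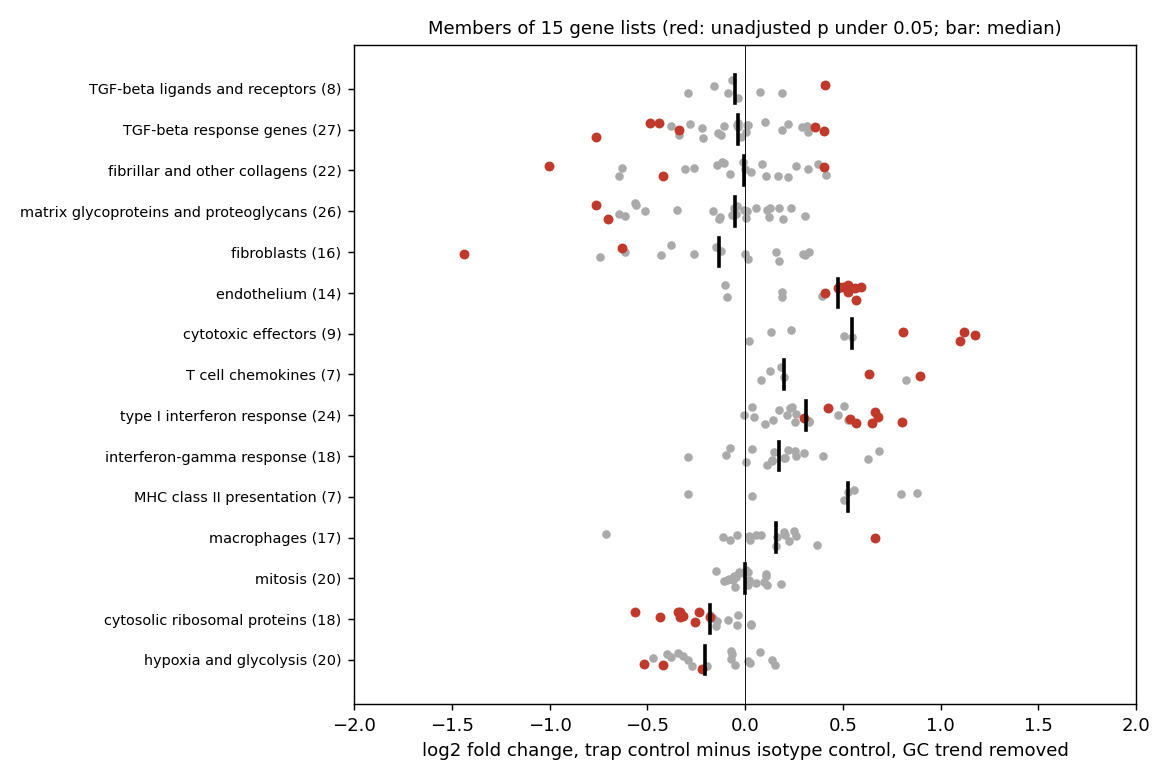
Log2 fold change, trap control minus isotype control with the GC trend removed, of the tested members of 15 gene lists (number of members in brackets). Each point is a gene, red where its unadjusted p is under 0.05, and the black bar is the list's median; no member shown passed adjusted p 0.05, and the medians run from −0.21 for hypoxia and glycolysis to 0.55 for cytotoxic effectors.

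Of the 18 ribosomal protein genes in the list, 16 had negative fold changes, 9 had unadjusted p under 0.05 and all 9 were lower (50%, against 6.16% of all genes in that direction), with a median of −0.18. Over all 77 genes that carry a ribosomal protein symbol, a set chosen after the values were seen, 66 were negative, 31 had unadjusted p under 0.05, all lower, and 2 fell in the adjusted test, Rps14 and Rps23. Rps18, of the small subunit, ran from 54.1 through 65.0 to 86.3 CPM against 76.0 through 87.2 to 121 CPM (−0.44, SE 0.12, adjusted p = 0.156), and Rplp1, of the stalk of the large subunit, was at −0.33 (SE 0.09, adjusted p = 0.164). The median over the 77 genes was −0.17, and −0.14 without C0449 and C0463. In that fit 24 of the 77 had unadjusted p under 0.05, against 12.5% of all genes. Genes encoded in the mitochondrial genome turned with the correction: all 13 had positive fold changes with a median of 0.44 where the GC trend was removed, and the median was −0.02 where it was not. The median of 0.44 also rested on C0459, and without that library it was −0.01. Their summed level, without removal of the GC trend, was highest in C0459 at 38802 CPM. The median of these sums was 13400.1 CPM with the trap control and 15575.9 CPM with the isotype control.

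Hypoxia and glycolysis genes had a median of −0.21, 15 of 20 were negative and none passed. Bnip3, a mitochondrial protein induced by hypoxia, ran from 78.0 through 131 to 147 CPM against 123 through 178 to 228 CPM, with all 6 trap control libraries below the isotype control median (log2 fold change −0.52, SE 0.16, adjusted p = 0.198). Stc1, named above as induced by hypoxia in many cells, went the other way. All 15 tested genes of the epithelial and mesenchymal list, which holds markers of both states, had negative fold changes with a median of −0.15, and none passed. Cdh1, the epithelial cadherin, ran from 1.08 through 1.25 to 2.18 CPM against 1.22 through 2.94 to 3.73 CPM (−0.92, SE 0.23, adjusted p = 0.136). Of 20 mitosis genes 10 were positive, with a range from −0.15 to 0.18 and none at unadjusted p under 0.05.

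**Figure D5:**
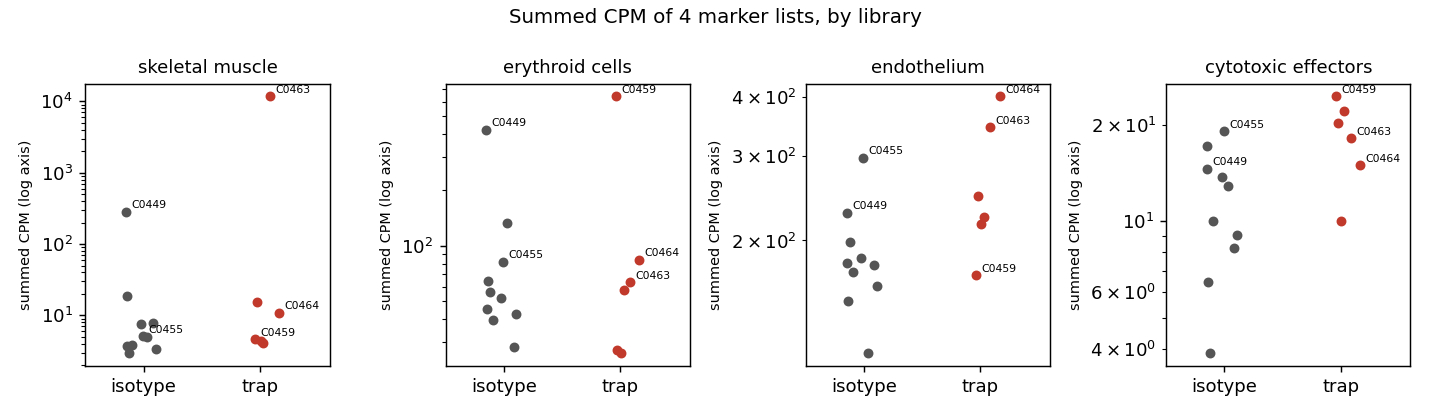
Summed level of 4 lists of marker genes in each library (CPM, TMM-scaled, log axis), with gray points for the 10 isotype control and red points for the 6 trap control libraries. C0463 stands out for skeletal muscle, C0459 and C0449 for erythroid cells, and C0464 and C0463 for endothelium.

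The trap was also present in the bifunctional protein, and a fit of all 40 libraries with the GC trend removed tested whether its effect differed when PD-L1 binding was added. The contrast of bifunctional against anti-PD-L1 libraries shares no library with the contrast above, but its libraries all have under 25% structural RNA, so PD-L1 binding and the kind of library cannot be told apart in the difference of the contrasts. In this fit 4327 of 16174 genes were called between bifunctional and anti-PD-L1 (26.8%), 55 between trap control and isotype control (0.34%), and 343 differed between the contrasts (2.12%). Protein-coding genes took 71.2% to 79.6% of counts in the bifunctional and anti-PD-L1 libraries. They took 24.5% to 59.0% with the trap control, the smallest group, and 26.9% to 52.0% with the isotype control. The numbers called therefore do not measure which effect was larger. Crabp1 fell by 1.15 on the log2 scale with the bifunctional protein (SE 0.28, adjusted p = 0.00564); for the trap alone this fit gave −1.51 (SE 0.37, adjusted p = 0.0529), and the difference was 0.36 (SE 0.45, adjusted p = 0.664). Stc1 was at 0.38 with the bifunctional protein (SE 0.21, adjusted p = 0.169), a difference of −0.78 (SE 0.32, adjusted p = 0.147). Bmp2 rose by 1.16 there (SE 0.28, adjusted p = 0.00517), and its difference was −0.32 (SE 0.44, adjusted p = 0.694). Rhoq was at 0.09 there (SE 0.08, adjusted p = 0.402), and this difference of 0.53 passed (SE 0.13, adjusted p = 0.0246). Rhoq was chosen by its fall with the trap alone, which enters this difference, so that pass is no independent result. Gzmb was at 2.03 (SE 0.27, adjusted p = 6.79e-05) against 1.13 for the trap alone, and the difference of 0.90 did not pass (SE 0.43, adjusted p = 0.197).

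By list, 10 of 12 cytotoxic effector genes tested in the larger fit rose between bifunctional and anti-PD-L1 (14.4% of all genes rose), with a median of 1.92 against 0.58 for the trap alone, and no member's difference passed. Of 20 mitosis genes 15 fell with the bifunctional protein (12.3% of all genes fell), with a median of −0.37 against −0.01 for the trap alone. Of these 20 genes 1 difference passed (2.12% of all genes). For endothelium the medians were 0.33 and 0.48. There 2 of 14 markers rose with the bifunctional protein, near the 14.4% of all genes, and 1 difference passed (2.12% of all genes). For the 27 TGF-β response genes the medians were 0.14 and −0.04, 5 rose with the bifunctional protein (14.4% of all genes) and no difference passed.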

How the data were processed

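Total RNA of snap-frozen tumors was sequenced after ribosomal depletion with random priming, per the labels' protocols. Tools and build in the submitters' processing notes are Bowtie2 2.3.1, RSEM 1.2.31 and mm10; roles, annotation release and strand are not given in the sources used here. The authors deposited expected counts and TPM values for 39012 Ensembl genes; 14.0% of the expected counts were not whole, and they were rounded. Symbols, positions and GC content came from GENCODE M21 (96.6% of IDs had a symbol). The main test was edgeR 4.0.16 (R 4.3.3) quasi-likelihood, two-sided, on the 16 libraries with TMM scaling, filterByExpr and a loess trend over GC content (span 0.3) per library as an offset, with Benjamini-Hochberg adjustment at 0.05. CPM values are TMM-scaled and corrected for that trend, except summed marker levels, which are TMM-scaled only. Alternatives are DESeq2 1.42.0, limma 3.58.1 on log2(TPM + 1), other filters, covariates and libraries left out; 5 were chosen after seeing the data. Procedures were tested on simulated data. No pair of libraries within a group agreed within sampling noise (smallest chi-square per degree of freedom 9.60 over 60 pairs). P-values set a group difference against the spread between samples within the groups. They do not cover a difference in how the groups' libraries were made. The compared libraries, the 48 gene lists and the named genes were chosen with earlier results of these data known. Named genes are the largest changes that passed with and without removal of the GC trend, leaving out pseudogenes and predicted genes, up to 2 members of each list with the smallest p where none passed, and a fixed set of pathway genes, of which 1 is not reported here. Rpl35a-ps2, Gm17711, Csn2, Cd3e and Cd8a fall outside this rule and were chosen after their values were seen. Promoter bases are RefSeq's.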

Additional observations from a re-analysis of the deposited data

Results flagged for a closer look

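Single libraries stood apart from their group in 37 of 214 groups of values examined. The values were the named genes, the structural RNA share and the total counts in each treatment group. Chance alone flags about 1 in 20 of independent groups, but these share libraries, so that rate is no test of the flagged values. In the trap control library C0464 these were Stc1 at 22.4 CPM, Bmp2 at 5.25, Klrk1 at 2.52, Kit at 15.9, H2-DMb1 at 4.36, H2-Eb1 at 37.9, Iigp1 at 35.9 and Krt7 at 6.51 CPM, all high, and Zfp97 at 12.5 CPM, low. In C0463 they were the muscle and fat genes Ttn at 5972, Tnni2 at 191, Des at 163 and Car3 at 87.0 CPM and the fibroblast gene Dpt at 2.97 CPM. In C0459, Hbb-bs at 267, Hbb-bt at 59.4, S100a8 at 11.6 and Adamts1 at 217 CPM were high and Tgfb1 at 19.0 and Cxcl10 at 2.01 CPM were low. In C0461, Crabp1 was high at 1.80 CPM.

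Among the isotype control libraries, C0449 was high for Ttn at 195, Tnni2 at 3.43, Des at 9.40, Hbb-bs at 184, Hbb-bt at 30.8 and S100a8 at 7.45 CPM. C0455 was high for Fbn1 at 181, Kdr at 29.8, Krt19 at 6.14 and Prlr at 8.28 CPM. C0456 was high for Adamts1 at 109 and low for Rhoq at 46.7 CPM. C0458 was high for mt-Nd3 at 316 and Xbp1 at 69.5 CPM, Ighm in C0450 was at 3.88 CPM, and Ndufb8 in C0453 was at 44.2 CPM.

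For 6 named genes the contrast of bifunctional against anti-PD-L1 differed from that of trap control against isotype control, by the interaction in the edgeR fit of 40 libraries at adjusted p under 0.05. The log2 differences were 0.53 for Rhoq (adjusted p = 0.0246), 1.00 for Gm17711 (0.0337), 1.92 for Lama2 (0.049), −0.69 for Hist1h2bc (0.0109), −0.93 for Hist1h1d (0.0109) and 2.40 for Cdh1 (0.0471). Cdh1 rose by 1.48 on the log2 scale with the bifunctional protein (adjusted p = 0.00994) and was at −0.92 with the trap alone (adjusted p = 0.493). The kind of library differs between these contrasts, and its part in the differences was not tested. Over all genes in that fit 2.12% differed, and 105 named genes were tested in the 16 libraries. Most were named by their p for trap control against isotype control, a contrast that enters the difference. All 6 differences had the sign opposite to that contrast, so the count is no independent result.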

How the results depend on the processing

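The count of 8 genes (1 higher, 7 lower) held with DESeq2 size factors, a filter of at least 1 CPM, structural RNA left out and a GC trend of span 0.7. It became 1041 (589 lower, the others higher) without removal of the GC trend and 1746 (779 and 967) in the DESeq2 Wald test without that removal. It became 55 (27 and 28) with all 40 libraries in the fit, 6 of them among the 8 genes. Fewer genes passed without a filter (3, of them 2 lower), with the structural RNA share as covariate (1, 0 lower), with scores of muscle, skin and fat markers in the model (2, 0 higher), with GC and length trends removed (1, 0 lower), without C0449 and C0463 (1, 0 lower) and in limma-voom with quality weights (4, 2 higher and 2 lower). No gene passed in either direction with log2(TPM + 1) or log2(TPM + 0.1) in limma, both without removal of the GC trend. There 3.46% and 3.32% of genes had unadjusted p under 0.05. None passed with the GC slope as covariate (731 unadjusted, 5.15% of genes) or without C0458 and C0459 (1448 unadjusted, 10.1%). The main fit had 12.7% of genes at unadjusted p under 0.05, and the causes were not tested. Leaving out single libraries gave 0 to 13 genes, 0 to 2 higher and 0 to 11 lower. No called gene changed direction in any of these fits. The medians of endothelium (0.26 to 0.58), cytotoxic effectors (0.14 to 1.01), type I interferon response (0.17 to 0.53) and ribosomal proteins (−0.28 to −0.15) kept their sign in all 33 alternatives, while those of TGF-β response genes (−0.08 to 0.05) and mitochondrial mRNAs (−0.25 to 0.60) did not. No paired analysis was possible because replicate numbers follow accession order and no label links libraries across the groups. Low counts limit the T cell genes: most did not reach the filter of the fit of 16 libraries at these depths.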
